A study of Mus musculus with 6 samples.

Results

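The genes described here are 10 integrin subunit genes that encode receptors for collagen, fibronectin, vitronectin and laminin in stromal cells: the α subunit genes Itga1, Itga5, Itga7, Itga8, Itga11 and Itgav and the β subunit genes Itgb1, Itgb3, Itgb5 and Itgb8. The members were chosen by symbol as matrix receptors of stromal cells, and all 10 were found among the 18124 genes listed and among the 14644 genes tested. RNA sequencing was done on cultured mouse muscle mesenchymal stem cells in 2 groups of 3 libraries each. The first group had been kept for 72 hours in medium from senescent macrophages and the second in medium from control macrophages, with the conditioned medium renewed at 24 and 48 hours. The macrophages were grown from bone marrow of wild type mice for 7 days with M-CSF. Senescence was induced by 300 µM hydrogen peroxide for 3 hours, given again after 3 days and followed by 14 days of culture, while the labels do not say how long the control macrophages were kept. Each medium was collected over 48 hours, and repeat collections were pooled. All libraries came from cells of male Col1-eGFP mice (n = 6), in which a collagen 1 promoter drives a green fluorescent protein. The cells were sorted from quadriceps muscle as alive, green and Sca-1-positive, expanded, and used at passage 4. Nothing in the labels assigns the 3 libraries of a group to separate animals or batches of medium. The p-values below therefore rest on library-to-library spread, part or all of which may be technical.

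Integrins are transmembrane heterodimers of an α and a β subunit that bind extracellular matrix outside the cell and, through talin and kindlin, the actin cytoskeleton inside it. The subunit pair sets the ligand. α1β1, α2β1, α10β1 and α11β1 bind collagen, α5β1, α8β1 and the αv integrins bind proteins with an arginine-glycine-aspartate (RGD) motif such as fibronectin and vitronectin, and α3β1, α6β1 and α7β1 bind laminin. In fibroblasts and other stromal cells α11β1 takes part in the remodelling of collagen, and αvβ5, αvβ3 and αvβ8 can bind the latent form of TGF-β.

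Library totals ranged from 19420750 to 21659434 estimated counts in senescent medium and from 17228162 to 21225833 in control medium. Levels are given as CPM, the estimated counts scaled to library size with TMM factors, and log2 fold changes are senescent over control medium. Errors are the SD over 3 libraries for levels and shares, and the SE for log2 fold changes. A gene was called higher or lower when its adjusted p was under 0.05 in the quasi-likelihood test of edgeR, adjusted over all genes tested. The markers of the sort were present in both media, with Ly6a, the gene of Sca-1, at 1235 ± 46.8 CPM in senescent medium and 1206 ± 44.7 CPM in control medium. Of 8 stromal markers 7 were tested, of which 4 were higher and 2 lower, against 24.6% and 24.9% of all genes tested. Higher were Col1a1 (log2 fold change 0.49 ± 0.033), Col1a2 (0.54 ± 0.032), Thy1 (0.29 ± 0.035) and Dcn (0.47 ± 0.078). Pdgfra (−0.29 ± 0.036) and Pdgfrb (−0.30 ± 0.034) were lower and Ly6a was not called. Lum was under 1 CPM in each medium and not tested. Of 14 macrophage markers 10 were not listed, among them Ptprc, Adgre1 and Itgam, and the 4 that were listed summed to 15.0 to 20.1 CPM in senescent medium and 11.9 to 14.3 CPM in control medium. Of the 3 tested, Lyz2 was higher (11.7 ± 1.33 CPM in senescent medium and 6.71 ± 0.779 CPM in control medium), Csf1r was lower (3.20 ± 0.731 CPM in senescent medium and 4.62 ± 1.06 CPM in control medium) and Cd68 was not called. The libraries of Csf1r overlapped between media. Of its exon length 15.1% is overlapped on the opposite strand, and the strand setting is not known. Of 10 myogenic markers 6 were not listed, Pax7, Myod1 and Myog among them, and the rest summed to 43.4 to 46.5 CPM in senescent medium and 45.2 to 49.0 CPM in control medium. Of the 3 tested, Des (log2 fold change 1.65 ± 0.20) and Acta1 (0.70 ± 0.11) were higher and Megf10 (−0.55 ± 0.067), which made up most of the sum, was lower. In RNA from a whole culture, fewer cells of a type and less RNA per cell cannot be told apart.

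Integrin genes moved in both directions. Of the 10 members 6 were higher in senescent medium (Itgb3, Itga8, Itgb8, Itgb1, Itgb5 and Itgav), 3 were lower (Itga1, Itga11 and Itga5) and Itga7 was not called. Among all genes tested, 24.6% were higher and 24.9% lower, which makes 49.5% called. Only Itgb3 among the higher members and Itga1 among the lower ones changed by at least 1.5-fold, where 6.69% of the tested genes were higher by that much and 7.05% were lower. The median log2 fold change of the members was 0.19, against −0.00096 over all tested genes. In 8 members the 3 libraries of senescent medium did not overlap those of control medium, as in 55.8% of the tested genes. With libraries scaled by their totals alone, 4 members were higher and 3 lower.

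**Figure D1:**
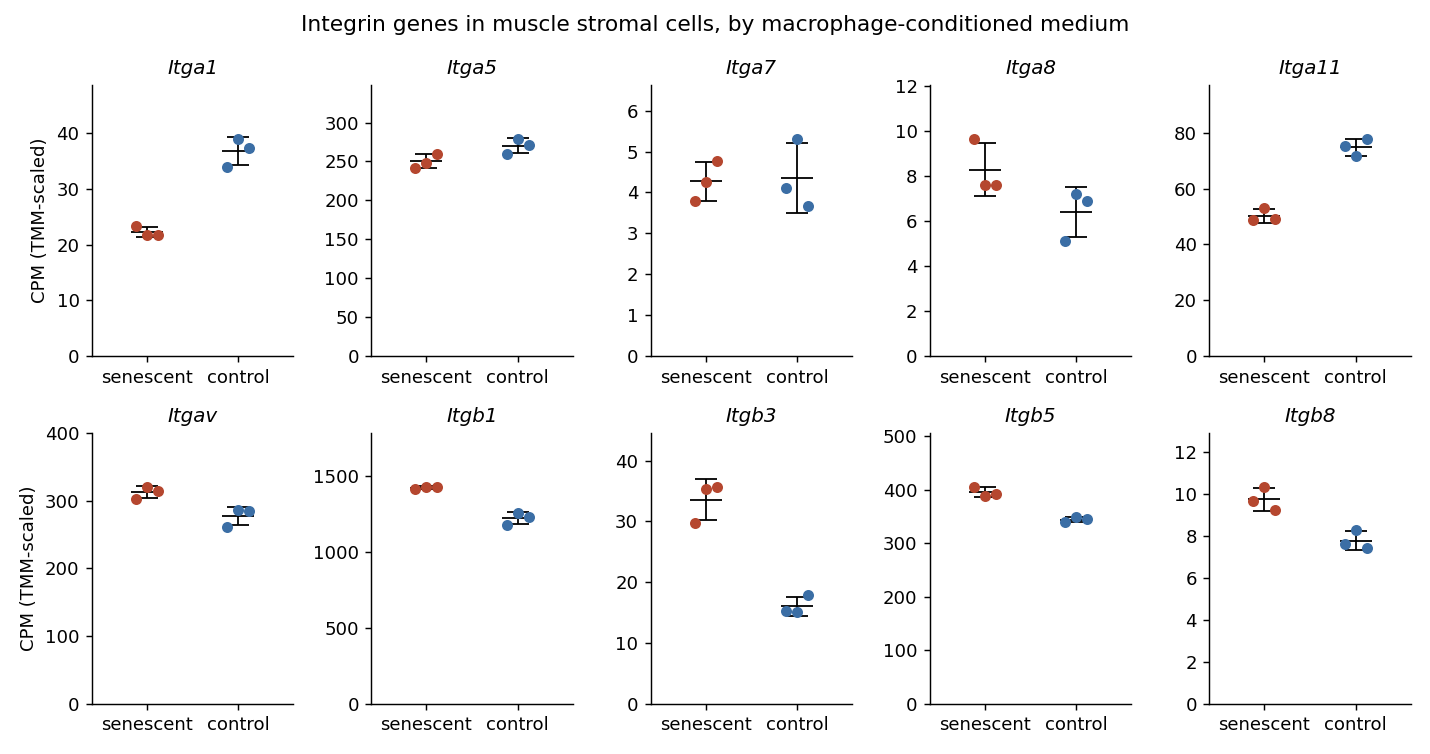
CPM of the 10 integrin genes in each library (points), with the mean and SD of 3 libraries per medium (black bars), senescent macrophage medium in red and control medium in blue. The points of both media are apart for 8 genes and overlap for Itga5 and Itga7, and Itgb3 has the widest gap in relation to its level.

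Both collagen-binding α genes of the set were lower in senescent medium, against 24.9% of all genes tested. Itga1 (ENSMUSG00000042284) encodes α1, which prefers basement membrane collagen IV. It measured 23.4, 21.7 and 21.7 CPM in the 3 libraries of senescent medium, against 34.0, 38.9 and 37.3 CPM in control medium. Every library of senescent medium lay below every control library, and the log2 fold change was −0.72 ± 0.069 (adjusted p = 3.04e-10, edgeR), a level 0.605 times that of control medium. Among the tested genes 11.7% had an absolute log2 fold change at least as large. Itga11 (ENSMUSG00000032243) encodes α11, the fibrillar collagen receptor of fibroblasts. It measured 48.7, 53.2 and 49.1 CPM in senescent medium, against 75.2, 71.6 and 77.8 CPM in control medium. The libraries again did not overlap, and the log2 fold change was −0.57 ± 0.052 (adjusted p = 8.39e-11, edgeR). Of the pericyte and smooth muscle markers 8 were tested, of which 4 were lower and 1 higher, against 24.9% and 24.6% of all genes tested. Myh11, Mcam, Smtn and Cnn1 were lower, Des was higher (log2 fold change 1.65 ± 0.20), and Rgs5, Abcc9 and Notch3 were not called. The list summed to 195.6 to 210.0 CPM in senescent medium and 250.1 to 262 CPM in control medium. Its part in the levels of the α genes was not tested. The Itga1 and Itga11 calls held under each of the 14 other fits tried, with log2 fold changes from −0.81 to −0.68 for Itga1 and from −0.65 to −0.55 for Itga11.

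The 250 bases before the start of these 2 genes are shown because both genes were lower. They were taken from RefSeq on build GRCm38.p6, and capitals mark matches to any of 6 motifs: the GC box GGGCGG, the TATA box TATAAA, the TEAD motif GGAATG, the AP-1 motif TGANTCA, the SMAD motif CAGAC and the CArG box of SRF, each searched on both strands. The Itga1 window lies at chr13:115101965-115102214 on the minus strand and the Itga11 window at chr9:62677605-62677854 on the plus strand.
Itga1: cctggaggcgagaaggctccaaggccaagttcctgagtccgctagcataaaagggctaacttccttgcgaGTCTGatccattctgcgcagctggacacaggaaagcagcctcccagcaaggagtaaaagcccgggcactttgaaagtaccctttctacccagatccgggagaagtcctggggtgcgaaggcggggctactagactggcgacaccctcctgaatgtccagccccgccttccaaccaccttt
Itga11: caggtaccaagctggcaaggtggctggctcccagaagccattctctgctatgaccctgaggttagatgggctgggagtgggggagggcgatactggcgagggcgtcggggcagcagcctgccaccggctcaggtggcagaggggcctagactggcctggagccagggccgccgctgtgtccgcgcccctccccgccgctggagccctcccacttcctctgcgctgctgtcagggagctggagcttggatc
The Itga1 window held 1 SMAD match and the Itga11 window no match to any of the 6, with a GC content of 57.6% and 68.4%. Of 32851 promoter windows of the same length in the table, 42.2% held a SMAD match, 32.7% a GC box, 12.4% a TATA box, 12.6% a TEAD match, 6.75% an AP-1 match and 1.47% a CArG box.

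The RGD-binding α genes differed in direction. Itgav (ENSMUSG00000027087), the α subunit shared by the vitronectin receptors, measured 303, 321 and 314 CPM in senescent medium, against 262, 286 and 285 CPM in control medium. The libraries did not overlap, although the gap between the lowest of senescent medium and the highest of control medium was small, and the gene was higher by 0.17 ± 0.037 on the log2 scale (adjusted p = 0.000297, edgeR). With libraries scaled by their totals alone, the value was 0.091 (adjusted p = 0.0457, edgeR). An absolute log2 fold change at least as large as 0.17 was found in 61% of the tested genes. Itga5 (ENSMUSG00000000555), which pairs with β1 to form the main fibronectin receptor, measured 242, 248 and 260.1 CPM in senescent medium, against 259.8, 279 and 271 CPM in control medium. The highest library of senescent medium reached the lowest of control medium, and the log2 fold change of −0.11 ± 0.037 (adjusted p = 0.0138, edgeR) was matched or exceeded in size by 74.1% of the tested genes. That call was lost without senescent-medium replicate 1 (adjusted p = 0.10) or 2 (0.0629) and without control replicate 2 (0.0924). With library totals the log2 fold change was larger in size, at −0.19 (adjusted p = 0.000123). Relative to each other, the ratio of Itgav to Itga5 in CPM per kilobase of exon was 0.575, 0.593 and 0.555 in senescent medium, against 0.463, 0.471 and 0.482 in control medium, with no overlap. This ratio was formed after the values were seen and was not tested, and it restates the levels of both genes given above.

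Itga8 (ENSMUSG00000026768), whose product α8 pairs with β1 and binds nephronectin and fibronectin, had few reads, with 143 to 201 estimated counts per library in senescent medium and 91.0 to 156 in control medium. It measured 9.63, 7.61 and 7.59 CPM in senescent medium, against 5.13, 7.20 and 6.87 CPM in control medium. Replicate 1 stood highest in senescent medium and lowest in control medium, the groups did not overlap, and the other libraries differed by less than 1 CPM. The log2 fold change was 0.37 ± 0.14 (adjusted p = 0.0292, edgeR). The call was lost without senescent-medium replicate 1 (log2 fold change 0.24, adjusted p = 0.205), without control replicate 1 (0.24, adjusted p = 0.175), with library totals (0.29, adjusted p = 0.0891) and with DESeq2 (0.37, adjusted p = 0.0958).

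The laminin-binding member Itga7 (ENSMUSG00000025348) was not called. Its product α7 is the laminin receptor of skeletal muscle fibres and is also made by smooth muscle. The libraries of senescent medium held 3.79, 4.26 and 4.76 CPM and those of control medium 4.11, 5.30 and 3.66 CPM. The values overlapped throughout, at 79.0 to 99.0 estimated counts per library in senescent medium and 65.0 to 115 in control medium, and the log2 fold change was −0.040 ± 0.17 (adjusted p = 0.868, edgeR). Its sign turned without senescent-medium replicate 1 (0.042, adjusted p = 0.883) and without control replicate 2 (0.14, adjusted p = 0.594).

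All 4 β genes of the set were higher in senescent medium, against 24.6% of all genes tested. Of the β genes outside the set, Itgb2 was higher and Itgb4 and Itgb7 were not called. Itgb3 (ENSMUSG00000020689) encodes β3, which pairs with αv in stromal cells and with αIIb in platelets. It measured 29.7, 35.3 and 35.7 CPM in senescent medium, against 15.2, 15.0 and 17.8 CPM in control medium. The libraries lay far apart, and Itgb3 was higher by 1.07 ± 0.083 on the log2 scale (adjusted p = 7.97e-12, edgeR), or 2.10-fold, and 5.36% of the tested genes had an absolute log2 fold change at least as large. Over the other 14 fits it ranged from 0.99 to 1.15 and stayed called in each. Itgb5 (ENSMUSG00000022817) encodes β5, which pairs with αv alone. It measured 406, 388 and 392 CPM in senescent medium, against 339.8, 348 and 345 CPM in control medium. No libraries overlapped, and the gene was higher by 0.20 ± 0.034 on the log2 scale (adjusted p = 9.36e-06, edgeR). That size was matched or exceeded by 55.4% of the tested genes. The ratio of Itgb3 to Itgb5 in CPM per kilobase was 0.0440, 0.0548 and 0.0547 in senescent medium, against 0.0270, 0.0260 and 0.0311 in control medium, so the lowest ratio of senescent medium lay above the highest of control medium. It too was formed after the values were seen, was not tested, and restates the levels of both genes.

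Itgb1 (ENSMUSG00000025809), the common partner of the collagen, fibronectin and laminin receptors, had the highest level per kilobase of the integrin genes listed. It measured 1412.5, 1427.5 and 1428 CPM in senescent medium, against 1179, 1258 and 1229 CPM in control medium. The libraries did not overlap and the log2 fold change was 0.22 ± 0.033 (adjusted p = 1.43e-06, edgeR). A difference of at least that size was found in 51.8% of the tested genes. For Itgb1 and Itgb5 the difference was smaller with library totals (log2 fold changes 0.14 and 0.12, adjusted p = 0.000707 and 0.00352), and both remained called. Itgb8 (ENSMUSG00000025321) encodes β8, an αv partner with a cytoplasmic tail unlike that of the other β subunits. It measured 9.65, 10.3 and 9.23 CPM in senescent medium, against 7.61, 8.30 and 7.42 CPM in control medium. The libraries did not overlap, with 192 to 201 estimated counts per library in senescent medium and 132 to 180.0 in control medium, and the log2 fold change was 0.32 ± 0.11 (adjusted p = 0.0212, edgeR). The Itgb8 call was lost without senescent-medium replicate 2 (adjusted p = 0.0873), without control replicate 1 (0.0517) or 3 (0.0749), with library totals (0.0842) and with DESeq2 (0.0820).

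The windows before Itgb1 and Itgb5, the β genes of highest level per kilobase, are shown beside those of the α genes because both were higher by a similar amount. On GRCm38.p6 they lie at chr8:128685404-128685653 and chr16:33829415-33829664, both on the plus strand, and capitals mark the same 6 motifs.
Itgb1: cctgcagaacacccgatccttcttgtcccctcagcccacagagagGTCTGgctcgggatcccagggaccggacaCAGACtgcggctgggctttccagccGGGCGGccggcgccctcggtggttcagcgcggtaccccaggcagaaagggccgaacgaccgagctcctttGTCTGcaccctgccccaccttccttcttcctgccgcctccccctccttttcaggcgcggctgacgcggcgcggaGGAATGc
Itgb5: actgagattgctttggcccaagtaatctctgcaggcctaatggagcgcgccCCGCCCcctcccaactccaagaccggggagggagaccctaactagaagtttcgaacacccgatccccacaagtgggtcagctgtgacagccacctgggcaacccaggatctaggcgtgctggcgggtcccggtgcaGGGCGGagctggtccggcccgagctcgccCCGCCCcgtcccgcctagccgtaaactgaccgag
The Itgb1 window held 1 GC box, 1 TEAD and 3 SMAD matches and the Itgb5 window 3 GC boxes, with a GC content of 68.0% and 65.2%. Of the 8 members with a window in the table, 3 held a GC box, 3 a SMAD match and 1 a TEAD match, and none held an AP-1, CArG or TATA match. Over all 32851 windows the shares were 32.7%, 42.2% and 12.6% for the first 3 motifs, and 6.75%, 1.47% and 12.4% for the last 3. Itga7 and Itgb3 had no window in the table.

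**Figure D2:**
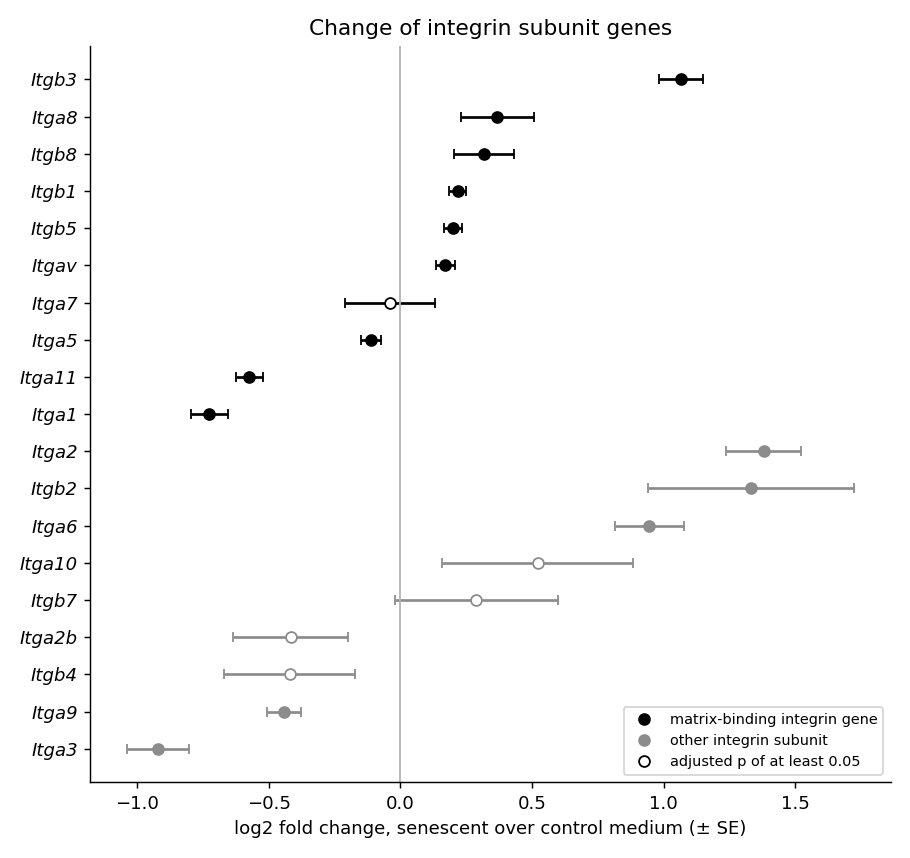
Log2 fold changes (senescent over control medium) with SE from edgeR for the 10 matrix-binding integrin genes (black) and the 9 other tested integrin subunits with a mean of at least 1 CPM over the 6 libraries (grey), open symbols marking an adjusted p of at least 0.05. Itgb3 stands at 1.07 and Itga1 at −0.72 among the black points, and Itga2 at 1.38 and Itga3 at −0.92 among the grey ones.

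Levels of different genes were compared per kilobase of exon. In senescent medium the order was Itgb1 at 349 ± 2.15 CPM per kb, Itgb5 at 111 ± 2.57, Itga5 at 50.7 ± 1.86, Itgav at 29.1 ± 0.819, Itga11 at 9.81 ± 0.481, Itgb3 at 5.69 ± 0.571, Itga1 at 1.196 ± 0.0527, Itga8 at 1.12 ± 0.160, Itgb8 at 0.880 ± 0.0504 and Itga7 at 0.528 ± 0.0598. The order in control medium was the same, from Itgb1 at 299.5 ± 9.88 CPM per kb to Itga7 at 0.539 ± 0.105. The 4 genes of highest level per kilobase had log2 fold changes between −0.11 and 0.22, and the larger differences were in genes below them in that order. Adjacent members did not overlap, with these exceptions: Itga1 and Itga8 in senescent medium, where the libraries of Itga8 (1.03 to 1.31) enclosed those of Itga1 (1.17 to 1.26), and Itga8 and Itgb8 in control medium (0.696 to 0.977 and 0.671 to 0.751). Exon lengths are those of all annotated transcripts of a gene joined together, 18599 bases for Itga1, so a level per kilobase can be too low where the cells use a short transcript. Other annotated genes overlap 5.9% of the exon length of Itgav and 5.05% of that of Itga8 on the opposite strand. For Itga1 the overlap is 3.68%, on the same strand. The strand setting is not known, and the part of these overlaps in the counts was not tested.

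Shares in the α pool did not overlap between media for Itgav, Itga11, Itga1 and Itga8, and in the β pool for Itgb3 among the members. Of the summed CPM per kb of 14 α subunits, Itga5 made up 50.2% ± 0.887 in senescent medium and 50.7% ± 0.654 in control medium. Its lead depends on the scaling by length. In CPM not scaled by length, the mean of Itgav was above that of Itga5 in both media. The means were 312.7 and 250.1 CPM in senescent medium and 277.5 and 269.9 CPM in control medium. Itgav made up 28.9%, 29.3% and 28.4% in the libraries of senescent medium, against 23.3%, 24.2% and 24.2% in control medium. Itga11 made up 9.72%, 10.2% and 9.29% in senescent medium, against 14.0%, 12.7% and 13.8% in control medium. Neither gene's shares overlapped between media. Of the 8 β subunits, Itgb1 made up 74.5% ± 0.404 and Itgb5 23.8% ± 0.563 in senescent medium, against 74.7% ± 0.407 and 24.2% ± 0.370 in control medium, which overlapped. The share of Itgb3 was 1.08%, 1.28% and 1.29% in senescent medium, against 0.663%, 0.621% and 0.750% in control medium. Of the 10 members' shares 5 did not overlap between media. Each of these 5 had p = 0.1 in an exact two-sided permutation test, the smallest that 3 against 3 libraries allow, and an adjusted p of 0.2 over 10 shares, so none could pass 0.05.

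**Figure D3:**
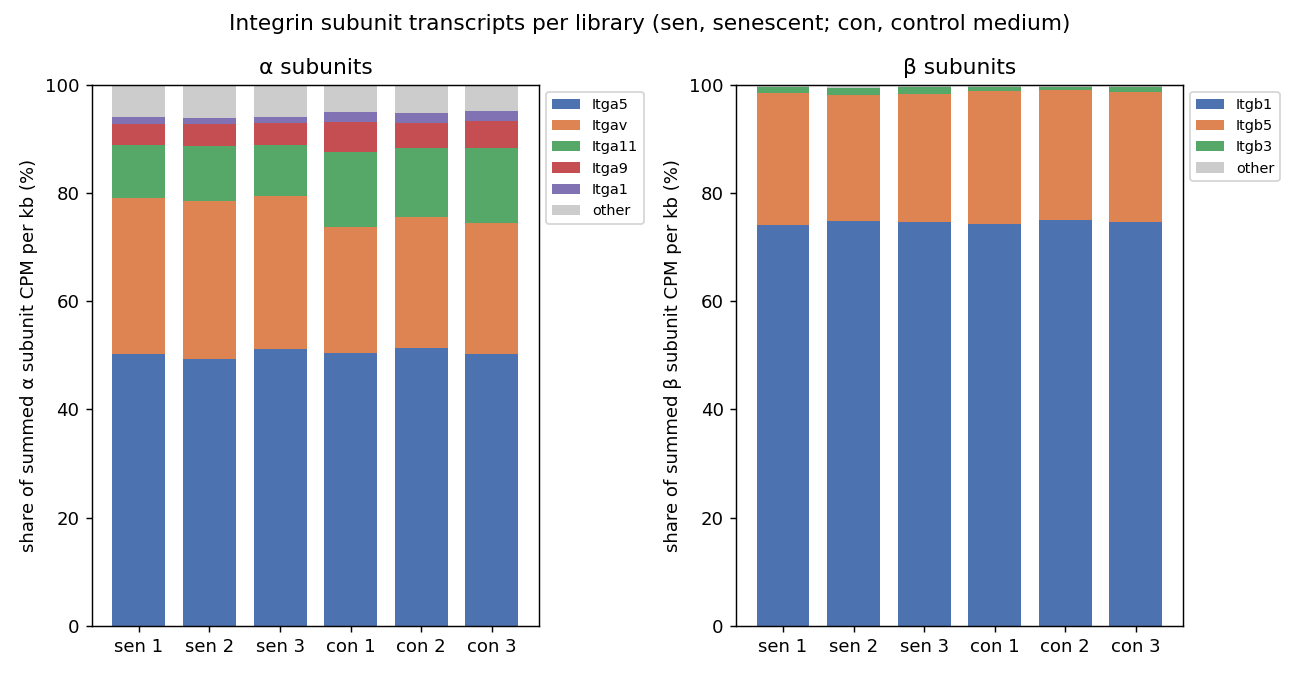
Share of each integrin subunit in the summed CPM per kb of all α subunits (left) and all β subunits (right), 1 bar per library, senescent medium (sen) left of control medium (con). The Itgav band is wider and the Itga11 band narrower in the 3 bars of senescent medium, while the Itgb1 and Itgb5 bands are of like height in all 6.

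Summed by ligand class, in classes formed after the values were seen and given without a test, the collagen-binding α genes Itga1, Itga2, Itga10 and Itga11 held 12.3, 13.3 and 12.4 CPM per kb in senescent medium, against 17.3, 16.7 and 17.9 in control medium. The RGD-binding genes Itga5, Itga8 and Itgav held 78.6, 81.2 and 83.0 CPM per kb in senescent medium, against 77.7, 84.1 and 82.5 in control medium. The collagen class was thus lower in each library of senescent medium and the RGD class overlapped. Most of the collagen class was Itga11, at 9.81 of 12.65 CPM per kb in senescent medium and 14.59 of 17.27 in control medium. Within that class Itga2 was higher and Itga10 was not called. The laminin-binding genes Itga3, Itga6 and Itga7 held 2.43, 2.89 and 2.98 CPM per kb in senescent medium. In control medium they held 3.09, 3.35 and 2.97, so this class overlapped as well. All 14 α genes together held 100.9 ± 2.90 CPM per kb in senescent medium and 108 ± 2.97 in control medium, and all 8 β genes held 468 ± 0.604 in senescent medium and 401 ± 11.1 in control medium.

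Outside the set, 12 other integrin subunit genes were listed and 10 of them tested, of which 3 were higher and 2 lower, with a median log2 fold change of −0.063. These counts are near the share over all genes tested, of which 24.6% were higher and 24.9% lower. Itga2, the gene of the collagen receptor subunit α2, was higher, at 10.2, 10.5 and 9.47 CPM in senescent medium and 4.39, 3.04 and 4.27 CPM in control medium (log2 fold change 1.38 ± 0.14, adjusted p = 1.57e-09, edgeR). It moved against the other collagen-binding genes Itga1 and Itga11, and its ratio to Itga1 in CPM per kilobase was 1.14 to 1.27 in senescent medium and 0.204 to 0.337 in control medium. That ratio was likewise formed after the values were seen and was not tested. Among laminin receptor genes, Itga6 was higher at 10.7 ± 1.32 CPM in senescent medium and 5.55 ± 0.651 CPM in control medium (0.95 ± 0.13, adjusted p = 3.29e-07, edgeR). Itga3 was lower at 5.998 ± 0.568 CPM in senescent medium and 11.3 ± 0.707 CPM in control medium (−0.92 ± 0.12, adjusted p = 1.28e-07, edgeR). Itga9, whose product binds tenascin C, was lower at 31.1 ± 1.65 CPM in senescent medium and 42.3 ± 2.96 CPM in control medium (−0.44 ± 0.065, adjusted p = 1.09e-06, edgeR). Itgb2, the β subunit of leukocytes, held 24.0 to 49.0 estimated counts per library in senescent medium and 6.00 to 19.0 in control medium (1.33 ± 0.39, adjusted p = 0.00666, edgeR). Its call was lost without senescent-medium replicate 2 (log2 fold change 1.04, adjusted p = 0.0645) or control replicate 2 (0.89, adjusted p = 0.0526), and the part of macrophage RNA in it, whose marker sums are given above, was not tested. Itga2b, Itga10, Itgb4 and Itgb7, with group means between 0.842 and 2.85 CPM, were not called, with log2 fold changes of −0.42, 0.52, −0.42 and 0.29. Of the exon length of Itga10, 33.5% is shared with another annotated gene on the same strand.

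Genes that link integrins to the cytoskeleton gave calls in both directions. The counts below stand beside 24.6% higher and 24.9% lower over all genes tested. At least 1.5-fold were the differences of Lims2 (0.70 ± 0.11) and Tns2, both higher, and of Filip1l (−0.63 ± 0.071), which was lower. Of 15 tested activators and inactivators 7 were higher and 4 lower, with a median of 0.16. With library totals 6 were higher and 6 lower. Talin-1 gene Tln1 was higher (505 CPM in senescent medium and 447 CPM in control medium, log2 fold change 0.18 ± 0.034), while the kindlin-2 gene Fermt2 was lower (108 CPM in senescent medium and 126 CPM in control medium, −0.22 ± 0.043). The smallest adjusted p values of the list belonged to Kank2, which binds talin (0.39 ± 0.034, adjusted p = 3.87e-11, edgeR), and Flna, whose product filamin A binds β tails and actin (0.34 ± 0.033, adjusted p = 3.56e-10). Of 36 focal adhesion adaptors and kinases 12 were higher, 12 lower and 12 not called, with a median of 0.010. The counts were 7 higher and 16 lower with library totals. The tensin gene Tns2 (0.66 ± 0.045, adjusted p = 1.33e-13, edgeR) and the parvin gene Parva (0.34 ± 0.033, adjusted p = 5.31e-10) led by adjusted p, and Vcl, the gene of vinculin, was lower (−0.12 ± 0.035), although 25.5% of its exon length is overlapped on the opposite strand and the strand setting is not known. The kinase genes Src (−0.29 ± 0.044) and Ptk2, which encodes focal adhesion kinase (−0.12 ± 0.052, adjusted p = 0.0557), gave 1 call between them, Src being lower. Of 16 trafficking genes 4 were higher and 2 lower, among them Dab2, an endocytic adaptor (0.42 ± 0.057), and Snx17, which recycles β1 integrins to the surface (−0.38 ± 0.042). Eif2b4 and Zfp513 overlap 6.6% and 5.27% of the exon length of Snx17 on the opposite strand. The trafficking counts became 1 higher and 5 lower with library totals. When single libraries were left out, 1 to 4 were lower, with 1 lower without senescent-medium replicate 3 or control replicate 3 and 4 without control replicate 1.

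Ligand genes gave more higher than lower calls, where 24.6% of all genes tested were higher and 24.9% lower. Of 12 tested collagen genes from the receptors' ligands 10 were higher and 1, Col6a2, was lower, with a median of 0.48. With library totals 10 were higher and 2 lower. Col5a1 (0.79 ± 0.034, adjusted p = 1.43e-18, edgeR) and Col16a1 (0.80 ± 0.042, adjusted p = 2.61e-16), which encodes a collagen that α1β1 and α2β1 bind, led by adjusted p. Col4a1, a chain of the collagen IV that α1 prefers, measured 1646 ± 39.8 CPM in senescent medium and 1201 ± 21.1 CPM in control medium (0.45 ± 0.032, adjusted p = 3.79e-13). The genes of the receptor subunits α1 and α11 were lower in the same libraries, as given above. Of 32 tested fibronectin, laminin and RGD ligand genes 16 were higher and 8 lower, with a median of 0.16. With library totals these were 12 higher and 8 lower. Nid1, the gene of the basement membrane linker nidogen-1, measured 2364 CPM in senescent medium and 1381 CPM in control medium (0.78 ± 0.037, adjusted p = 1.04e-16, edgeR). The fibronectin gene Fn1 measured 20279 ± 915 CPM in senescent medium and 13457 ± 593 CPM in control medium (0.59 ± 0.038). Beside the 16 higher genes, the lower ones included Thbs1 (9456 CPM in senescent medium and 10533 CPM in control medium, −0.16 ± 0.039) and Spp1 (1215 CPM and 1424 CPM, −0.23 ± 0.037). Postn (−0.15 ± 0.033), Ccn1 (−0.12 ± 0.034) and Emilin1 (−0.19 ± 0.035) were lower too. The vitronectin gene Vtn was listed at under 1 CPM in each medium and not tested. Of the genes whose products hold or are latent TGF-β, which αv integrins bind, Lrrc32 (−0.35 ± 0.033), Ltbp1 (−0.30 ± 0.063) and Tgfb3 (−0.47 ± 0.043) were lower, Ltbp3 was higher (0.11 ± 0.034, adjusted p = 0.00625, edgeR), and Tgfb1 was not called (0.15 ± 0.069, adjusted p = 0.0824).

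Matrix receptors that are not integrins, and membrane partners of integrins, gave more higher than lower calls. The share over all genes tested was 24.6% higher and 24.9% lower. Of 19 tested receptors 11 were higher and 4 lower, with a median of 0.18, and 10 were higher and 6 lower with library totals. The collagen uptake receptor gene Mrc2 measured 677 CPM in senescent medium and 422 CPM in control medium (0.68 ± 0.034, adjusted p = 9.30e-17, edgeR), and Hmmr, which encodes a hyaluronan-binding protein also found on the mitotic spindle, 13.0 CPM in senescent medium and 38.3 CPM in control medium (−1.56 ± 0.075, adjusted p = 2.41e-17). The collagen receptor kinase genes differed in direction, with Ddr2 at 0.28 ± 0.034 and Ddr1 at −0.30 ± 0.037. Of 17 lateral partners 9 were higher and 2 lower, with a median of 0.17, and 7 were higher and 3 lower with library totals. Slc3a2, whose product CD98 heavy chain binds β integrin tails, was higher by 0.68 ± 0.043 (adjusted p = 2.23e-14, edgeR) and Bsg, the gene of basigin, by 0.53 ± 0.034 (adjusted p = 3.61e-14). The tetraspanin gene Cd151, a partner of laminin-binding integrins, was higher (0.31 ± 0.035), as was Cd81 (0.29 ± 0.036), and Cd9, 10.7% of whose exon length is overlapped on the opposite strand, was lower (−0.12 ± 0.034).

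**Figure D4:**
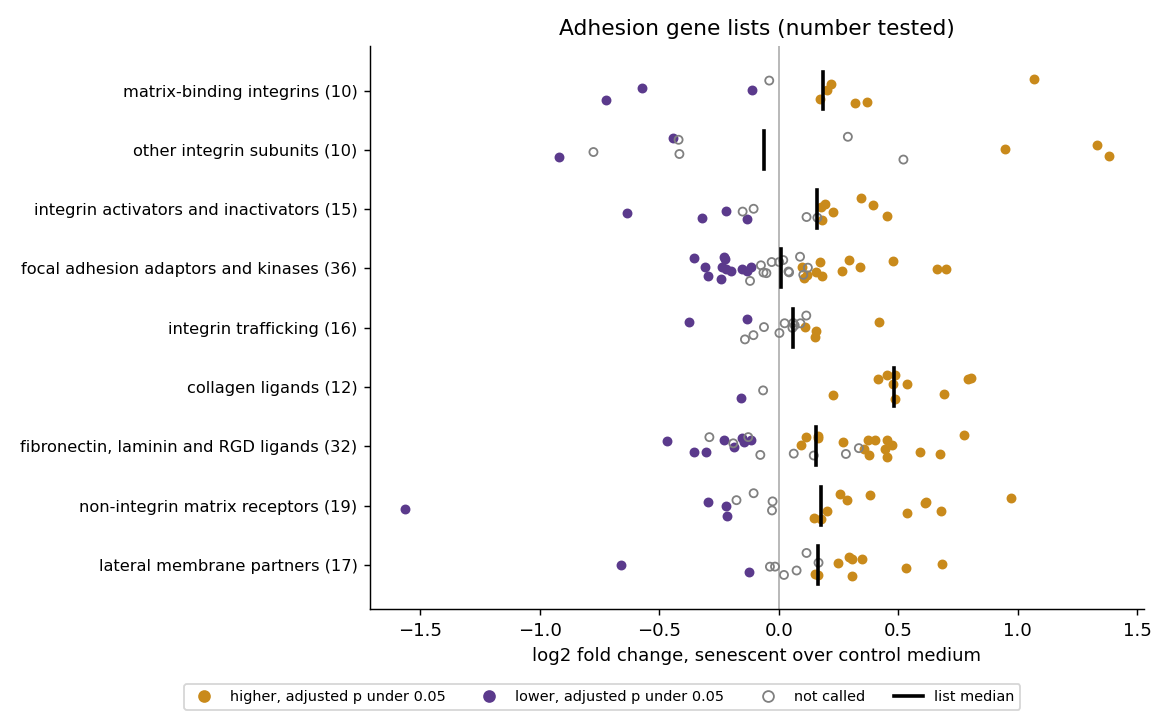
Log2 fold changes (senescent over control medium) of the tested genes of 9 adhesion lists, 1 point per gene, coloured by call, with the list median as a black bar and the number tested in parentheses. The collagen genes have the highest list median, 0.48, and the focal adhesion genes are spread about 0 with a median of 0.010.

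The members with the largest rise and the largest fall were compared with 10918 other genes of at least 5 CPM by the root mean square difference of their mean-centred log2 CPM over the 6 libraries. The nearest to Itgb3 were Nkain1 (0.026), Tmem231 (0.082) and Gm17709 (0.088), with log2 fold changes of 1.02, 1.001 and 1.08. Near to Itga1 were Atoh8 (0.039) and Hgf (0.047), with log2 fold changes of −0.77 and −0.71. With 6 libraries in 2 groups, a small value means mainly a like difference between media.

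**Figure D5:**
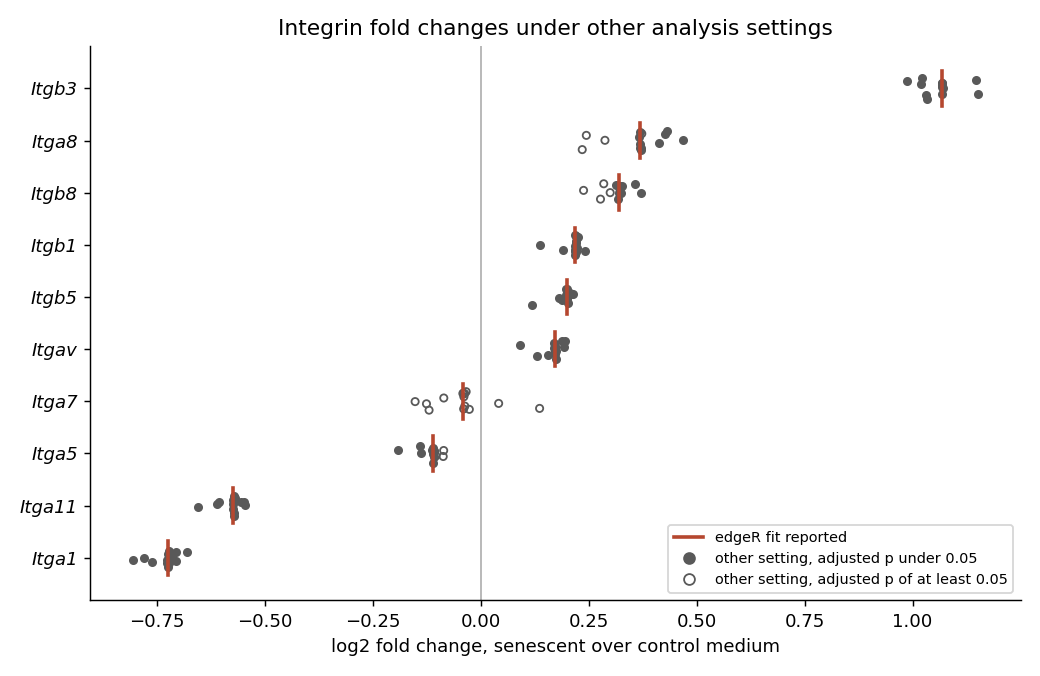
Log2 fold changes (senescent over control medium) of the 10 integrin genes in the edgeR fit reported (red bars) and in 14 other fits (points), open where the adjusted p was at least 0.05. The points of Itgb3, Itgb1, Itgb5, Itgav, Itga11 and Itga1 are all filled, those of Itgb8, Itga8 and Itga5 are filled in part, and those of Itga7 lie on both sides of 0.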

How the data were processed

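RNA was measured in 6 libraries of cultured muscle stromal cells, 3 per macrophage-conditioned medium, and groups and replicate numbers come from the sample titles. The values deposited by the authors are estimated counts for each Ensembl gene and library, without normalization, of which 70.3% to 72.8% per library lay within 0.01 of a whole number. STAR, DESeq2 and the build mm39 are named, per the submitters' processing notes, without a role, while for the counter, the annotation and strandedness the sources used here give nothing. Every listed gene had at least 10 counts over the 6 libraries, and no value is given for a gene that is not listed.

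The authors' estimated counts were rounded to whole numbers and tested with edgeR 4.0.16 in R 4.3.3 (quasi-likelihood F-test, robust, TMM scaling, expression filter, medium as the only term), two-sided, with Benjamini-Hochberg adjustment over 14644 genes and a threshold of 0.05. The SE of a log2 fold change was its size over the root of the F statistic. The log2 CPM used for profiles had a prior count of 2. The fit was tested on simulated data first. Shares of subunits were tested with exact permutation in scipy 1.17.1. Symbols and exon lengths came from GENCODE M21 on GRCm38, with a symbol for 18092 of 18124 identifiers (99.8%), and no coordinates of the deposited genes are given. DESeq2 1.42.0, limma 3.58.1 (voom), other scalings, filters and thresholds, a replicate block and leaving out each library were tried.

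The integrin genes, the other gene lists and the tests were chosen with earlier results of these data known. Named beside the 10 members were the 2 genes of smallest adjusted p in each adhesion list, the other integrin subunits of at least 1 CPM and the 3 nearest profiles of 2 members, of which 1 is not reported here. Further genes of the lists were named after their values were seen, for their known role.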

Additional observations from a re-analysis of the deposited data

How the results depend on the processing

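Of 140 values of the 10 members under 14 other fits each, 126 kept their direction and their side of the threshold, and 6 members did so in every fit (Itga1, Itga11, Itgav, Itgb1, Itgb3 and Itgb5). Of the rest, 12 were calls lost by Itga5, Itga8 and Itgb8, named with their values in the text, and 2 were the sign changes of Itga7, to log2 fold changes of 0.042 without senescent-medium replicate 1 and 0.14 without control replicate 2. Over single libraries left out, Itga7 ranged from −0.15 to 0.14. The cause was not tested. Over single libraries left out, 4 to 6 members were higher and 2 to 3 lower, against 6 and 3, and over all tested genes 3198 to 3517 were higher and 3179 to 3582 lower, against 3607 and 3644. With a threshold of 1.5-fold added, 1 member was higher and 1 lower, and 980 of all tested genes were higher and 1033 lower. With library totals the calls over all genes split into 2589 higher and 4813 lower (35% higher, against 49.7%), and the median of all tested genes shifted to −0.082. With a replicate block 6 members were higher and 3 lower, and over all genes 3704 and 3698. Deviations from the group mean correlated at 0.0187, 0.00189 and 0.0262 between libraries of the same number. Between libraries of different numbers the correlations ran from −0.0459 to 0.0272. The labels do not say what a shared number means, and whether it marks a shared culture or batch was not tested. DESeq2 called 4 members higher and 3 lower.

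Of 80 differences in subunit share under other settings, 75 kept their direction. Those that turned were the share of Itgb1 (0.031 percentage points without senescent-medium replicate 1 and 0.0039 without control replicate 2, against −0.199), of Itga5 (0.028 without senescent-medium replicate 2, against −0.416) and of Itga7 (−0.00020 without senescent-medium replicate 3 and −0.019 without control replicate 3, against 0.024). Over single libraries left out, these ranged from −0.403 to 0.031 for Itgb1, from −0.859 to 0.028 for Itga5 and from −0.019 to 0.0731 for Itga7. Without scaling by length the difference was −1.84 points for Itga1, against −0.641, and −1.38 for Itga5. Of 406 values of the 29 other named genes, 404 kept direction and call, and Itgb2 lost its call in the other 2. Itga7, Itga8 and Itgb8 had 65.0 to 201 estimated counts per library, the part of depth in their lost calls and sign changes was not tested, and Itga4 and Itgb6 did not pass the expression filter.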
